A study of Mus musculus with 61 samples.

Results

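Skeletal muscle RNA of the obese strain NZO was compared with that of the lean strain Cast, gene by gene. The comparison took every NZO library (8) and every Cast library (7), 15 of the 61 libraries of the series, and the groups were set by strain name and not by any measured value. Both strains are founders of the Diversity Outbred mouse population, and all mice had been given the same high-fat, high-sugar diet, labelled as 45 percent fat. NZO (New Zealand Obese) is an inbred strain known for polygenic obesity and insulin resistance. Cast (the inbred CAST line) descends from wild-caught mice of the castaneus subspecies and stays lean. The labels gave the tissue and the diet but no sex, age, body weight or named muscle, so obesity itself was not measured here. Nothing in them ties each library to a mouse of its own, so the p-values rest on library-to-library spread, which could be technical in part. Strain is the one difference between the groups that the labels name. The sample titles also carry ORSAM numbers, whose meaning is not given. These lie in separate runs for Cast, for NZO_1 to NZO_4 and for NZO_5 to NZO_8, so strain and ORSAM number cannot be told apart. The other 6 strains (AJ, B6, 129, NOD, PWK and WSB, 46 libraries) had the same diet and served to show which of NZO and Cast stood apart from the rest.

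Muscle takes up most of the glucose cleared after a meal, through insulin signalling and the transporter that Slc2a4 encodes, and it switches between glucose, fatty acids and amino acids as fuel. When insulin signalling or feeding falls, transcription factors of the FoxO family enter the nucleus and switch on ubiquitin ligases such as Trim63 (MuRF1) and Fbxo32 (atrogin-1), which mark muscle proteins for breakdown. Glucocorticoids act on some of the same genes. A piece of whole muscle also holds fat cells, vessels, nerve, tendon and blood, whose transcripts are counted together with those of the fibres.

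The 15 libraries held 19.7 to 65.2 M estimated counts, and levels are given as CPM, the count of a gene relative to the scaled size of its library. The first principal component of these libraries, 40.8% of the variance, placed the 8 NZO libraries on one side and the 7 Cast libraries on the other. The summed level of 10 skeletal muscle markers was 72030 to 114300 CPM in NZO (median 98440) and 83460 to 118500 CPM in Cast (median 92360). NZO_1 to NZO_4 and Cast_1 to Cast_3 were high in Xist, the transcript of the inactive X (159 to 242 CPM). The other 8 libraries were high in the Y-linked Ddx3y (66.8 to 200.3 CPM). Several libraries stood apart from their strain. Cast_1, Cast_5 and Cast_6 were far higher than the other 4 Cast libraries in Trim63, Foxo1 and the metallothioneins. Cast_7 held immunoglobulin transcripts, Cast_8 keratinocyte markers (388 CPM summed), Cast_1 and Cast_3 hepatocyte markers (4442 and 7175 CPM against a median of 764 over the series), NZO_8 neutrophil markers (124 CPM) and NZO_1 the highest slow-fibre transcripts. Calls lost without Cast_1, Cast_5 and Cast_6, without Cast_7 and Cast_8, or without Cast_1 and Cast_3 are given with their value without them. The spread within Cast was wider than within NZO (median SD over genes of 0.327 against 0.195 on the log2(CPM + 0.5) scale).

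Of 16682 genes tested, 9256 differed between NZO and Cast (55.5%), 4248 of them higher in NZO (25.5%) and 5008 higher in Cast (30.0%), by edgeR's quasi-likelihood test at an adjusted p of 0.05. The called differences had a median size of 0.675 on the log2 scale, and 2992 genes differed by at least 1 log2 unit. The median log2 difference of all tested genes was -0.06. Log2 differences are NZO minus Cast throughout, so that a positive value means higher in NZO. All NZO libraries lay above all Cast libraries for 1390 genes (8.33%), and the reverse held for 1192 genes (7.15%). Without Cast_1, Cast_5 and Cast_6, 3661 genes were called higher in NZO (21.4% of 17123 tested) and 3789 higher in Cast (22.1%). Without Cast_7 and Cast_8, 4929 of 16932 genes were called higher in NZO and 4926 higher in Cast. Without Cast_1 and Cast_3, 4120 of 16961 were called higher in NZO and 4721 higher in Cast. Counts of called list members below are to be read against the values for the same set of libraries. Of the 9256 genes, 6209 were called in the same direction without Cast_1, Cast_5 and Cast_6 and 50 in the opposite one. A fit of the 15 libraries alone, which does not borrow the spread of the other strains, called 6672 of 14905 genes. The SE and adjusted p printed here use a spread shared by 8 strains, and they overstate certainty where Cast varies more. For 3 genes that vary widely within Cast, the adjusted p (edgeR) was larger in the 15 libraries alone. It was 6.0e-04 against 7.6e-12 for Slc39a14, 1.1e-04 against 1.4e-11 for Foxo1 and 0.039 against 8.5e-05 for Ky.

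**Figure D1:**
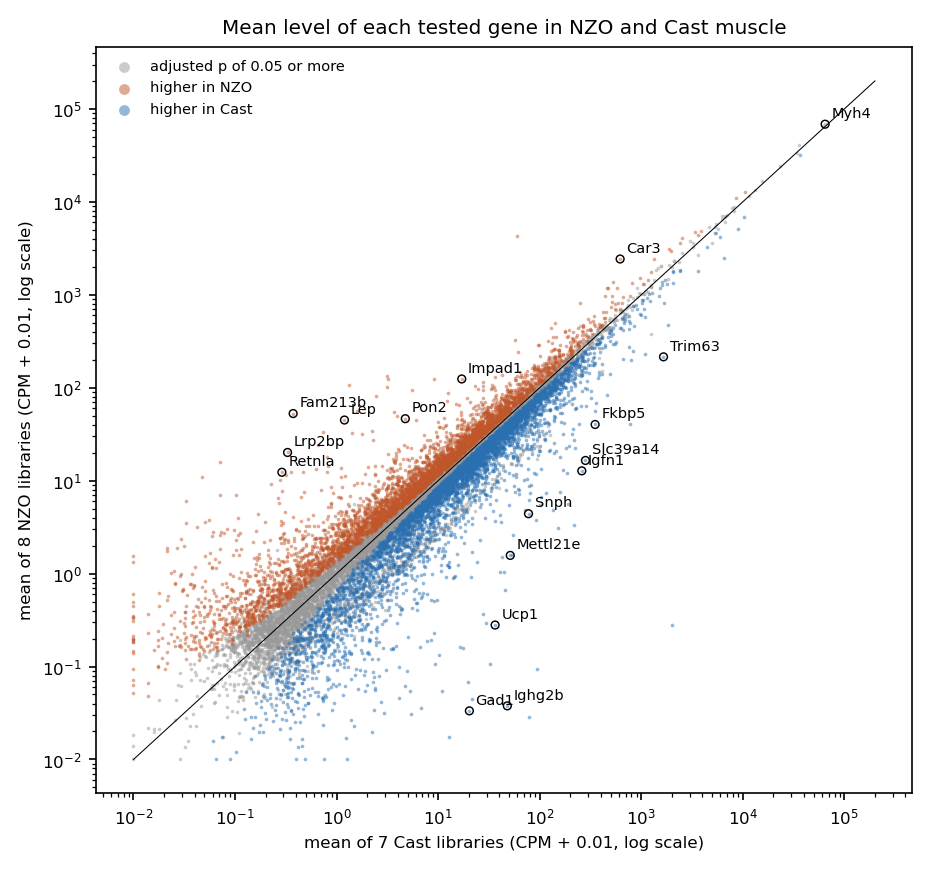
Mean level of each of the 16682 tested genes in the 7 Cast libraries (horizontal, CPM + 0.01, log scale) and the 8 NZO libraries (vertical, same scale), coloured by the direction of the call at an adjusted p of 0.05. Fam213b, Lrp2bp, Lep and Retnla lie far above the diagonal, Gad1, Ucp1, Mettl21e and Snph far below it, and the myosin Myh4 on it.

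Of the 12 genes named as highest in NZO (mean of at least 5 CPM, no near-identical copy), the first 3 were below 1 CPM in every Cast library. Fam213b, which encodes a prostaglandin F synthase of the thioredoxin-like family (chromosome 4, 154895504 to 154899135 on GRCm38), was at 36.2 to 68.5 CPM (median 51.8) in the NZO libraries against 0 to 0.929 CPM (median 0.169) in the Cast libraries. All 8 NZO libraries lay above all 7 Cast libraries (log2 difference 7.17 ± 0.31 SE, adjusted p = 1.7e-27). Lrp2bp, which encodes a binding partner of the endocytic receptor megalin, was at 12.9 to 24.9 CPM in NZO (median 21.8) and 0.111 to 0.627 CPM in Cast (median 0.317), again with no overlap (log2 difference 5.96 ± 0.33 SE, adjusted p = 2.1e-22). Retnla, a secreted protein of alternatively activated macrophages and fat tissue, stood at 10.1 to 15.2 CPM (median 11.9) in the NZO libraries against 0.0784 to 0.677 CPM (median 0.258) in the Cast libraries (log2 difference 5.50 ± 0.40 SE, adjusted p = 1.2e-17). Near 0 the size of such a log2 difference depends on the small count added in the fit, so the levels are the firmer description.

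Lep encodes leptin, the hormone that fat cells release in proportion to fat stores. It was measured at 111, 67, 64.5 and 66.7 CPM in NZO_1 to NZO_4, at 11.8, 13.8, 18.2 and 5.75 CPM in NZO_5 to NZO_8, and at 0.31, 0.93, 1.48, 0.0278, 0, 2.54 and 3.01 CPM in the Cast libraries. Every NZO library was above every Cast library (log2 difference 5.20 ± 0.77 SE, adjusted p = 8.0e-08), and within NZO the Xist-high libraries were all above the Ddx3y-high ones. The difference between NZO and Cast was 5.24 (adjusted p = 1.2e-07) with the Ddx3y minus Xist level as a covariate. The Xist-high and Ddx3y-high NZO libraries also lie in separate runs of ORSAM numbers, so the source of the split within NZO cannot be told apart.

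Kcng4, a modifier subunit of voltage-gated potassium channels, was at 21.9 to 41.7 CPM in NZO (median 31.4) and 0.196 to 4.7 CPM in Cast (median 1.52) (log2 difference 4.14 ± 0.41 SE, adjusted p = 1.4e-12). Gdf11, a secreted member of the TGF-beta family related to myostatin, was at 10.3 to 17.7 CPM (median 13.4) in the NZO libraries against 0.501 to 2.19 CPM (median 0.996) in the Cast libraries (log2 difference 3.60 ± 0.24 SE, adjusted p = 5.8e-19). Pon2, an intracellular lactonase with antioxidant activity, had the smallest standard error of these genes and was at 42.1 to 52.2 CPM in NZO (median 46.7) and 3.22 to 6.53 CPM in Cast (median 4.86) (log2 difference 3.29 ± 0.08 SE, adjusted p = 6.4e-39). Impad1, a phosphatase of the Golgi lumen needed for skeletal growth, was at 103 to 138 CPM (median 131) in the NZO libraries against 12.9 to 29.8 CPM (median 15.5) in the Cast libraries (log2 difference 2.86 ± 0.11 SE, adjusted p = 5.9e-30). In all of these the groups did not overlap. The remaining genes of the 12 highest in NZO were Nnat (neuronatin, an imprinted membrane protein), Cdh4 (R-cadherin), Nkain1 (a partner of the sodium pump) and Kera (keratocan, a matrix proteoglycan), with log2 differences of 3.18, 2.88, 2.63 and 2.57.

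Genes highest in Cast were mostly at or near 0 in NZO. Gad1 encodes an enzyme that makes the neurotransmitter GABA (chromosome 2, 70553072 to 70602014). Its level was 0 to 0.0944 CPM in NZO (median 0.0135) and 7.45 to 55.1 CPM in Cast (median 16.8), and Cast_6 was the highest library (log2 difference -9.63 ± 0.65 SE, adjusted p = 7.2e-19; -8.75, adjusted p = 1.8e-15 without Cast_1, Cast_5 and Cast_6). Gad1 overlaps an antisense gene, Gad1os, and Fam213b, Lrp2bp and Nnat overlap Mmel1, Ankrd37 and Blcap on the other strand. Whether the counting used strand is not given in the sources used here, so reads of such pairs may not be told apart. Tmem232, a membrane protein gene, was at 0.0292 to 0.351 CPM (median 0.142) in the NZO libraries against 8.24 to 22.4 CPM (median 15.7) in the Cast libraries (log2 difference -6.70 ± 0.41 SE, adjusted p = 8.3e-21). Chrna9, an acetylcholine receptor subunit best known from the inner ear, was at 0.0326 to 1.08 CPM in NZO (median 0.19) and 5.68 to 60.6 CPM in Cast (median 26.2) (log2 difference -6.66 ± 0.70 SE, adjusted p = 7.6e-12). For Gad1, Tmem232 and Chrna9 all Cast libraries lay above all NZO libraries.

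Mettl21e, a lysine methyltransferase of muscle, was at 0.459 to 3.81 CPM (median 1.27) in the NZO libraries against 11.5 to 107 CPM (median 45.8) in the Cast libraries (log2 difference -5.03 ± 0.44 SE, adjusted p = 1.8e-14). Irf4, a transcription factor of lymphocytes that also acts in fat and muscle, was at 0.614 to 1.21 CPM in NZO (median 0.866) and 3.54 to 50.6 CPM in Cast (median 15.8) (log2 difference -4.53 ± 0.41 SE, adjusted p = 4.2e-14; -3.92, adjusted p = 2.8e-12 without Cast_1, Cast_5 and Cast_6). Igfn1, a fibronectin and immunoglobulin domain protein of the Z-disc, combined a large difference with a high level, 7.06 to 24.1 CPM (median 10.7) in the NZO libraries against 167 to 354 CPM (median 249.9) in the Cast libraries (log2 difference -4.35 ± 0.25 SE, adjusted p = 1.4e-21). Its log2 difference was -4.35 (adjusted p = 7.9e-20) without Cast_1, Cast_5 and Cast_6. Doc2b, a calcium sensor of vesicle fusion that takes part in moving glucose transporters to the membrane, was at 0.493 to 3.24 CPM in NZO (median 0.755) and 1.03 to 161 CPM in Cast (median 8.71) (log2 difference -5.29 ± 0.62 SE, adjusted p = 2.1e-10), with 41.1, 68.9 and 161 CPM in Cast_1, Cast_5 and Cast_6. Without those 3 libraries it was -1.92 (adjusted p = 6.2e-04).

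The immunoglobulin genes among the top Cast genes rested on Cast_7 and Cast_8. Ighg2b was at 267 and 68.8 CPM in Cast_7 and Cast_8 and at 0 to 0.0738 CPM in the other 5 Cast libraries. The called log2 differences of Ighg2b, Ighg2c, Jchain and Igkc were -10.54, -10.21, -6.74 and -6.06. Without Cast_7 and Cast_8 they were 0.90 (adjusted p = 0.79), 1.54 (adjusted p = 0.6), -1.84 (adjusted p = 0.16) and -0.06 (adjusted p = 0.97), so none was called. Of 11 lymphocyte markers tested, 4 were higher in Cast with all libraries and 0 without Cast_7 and Cast_8 (1 at an unadjusted p under 0.05, edgeR). The count was 10 without Cast_1, Cast_5 and Cast_6 and 10 without Cast_1 and Cast_3. Their summed level was 21.5 to 62.9 CPM in NZO (median 24.2) and 27.8 to 286 CPM in Cast (median 86.9).

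**Figure D2:**
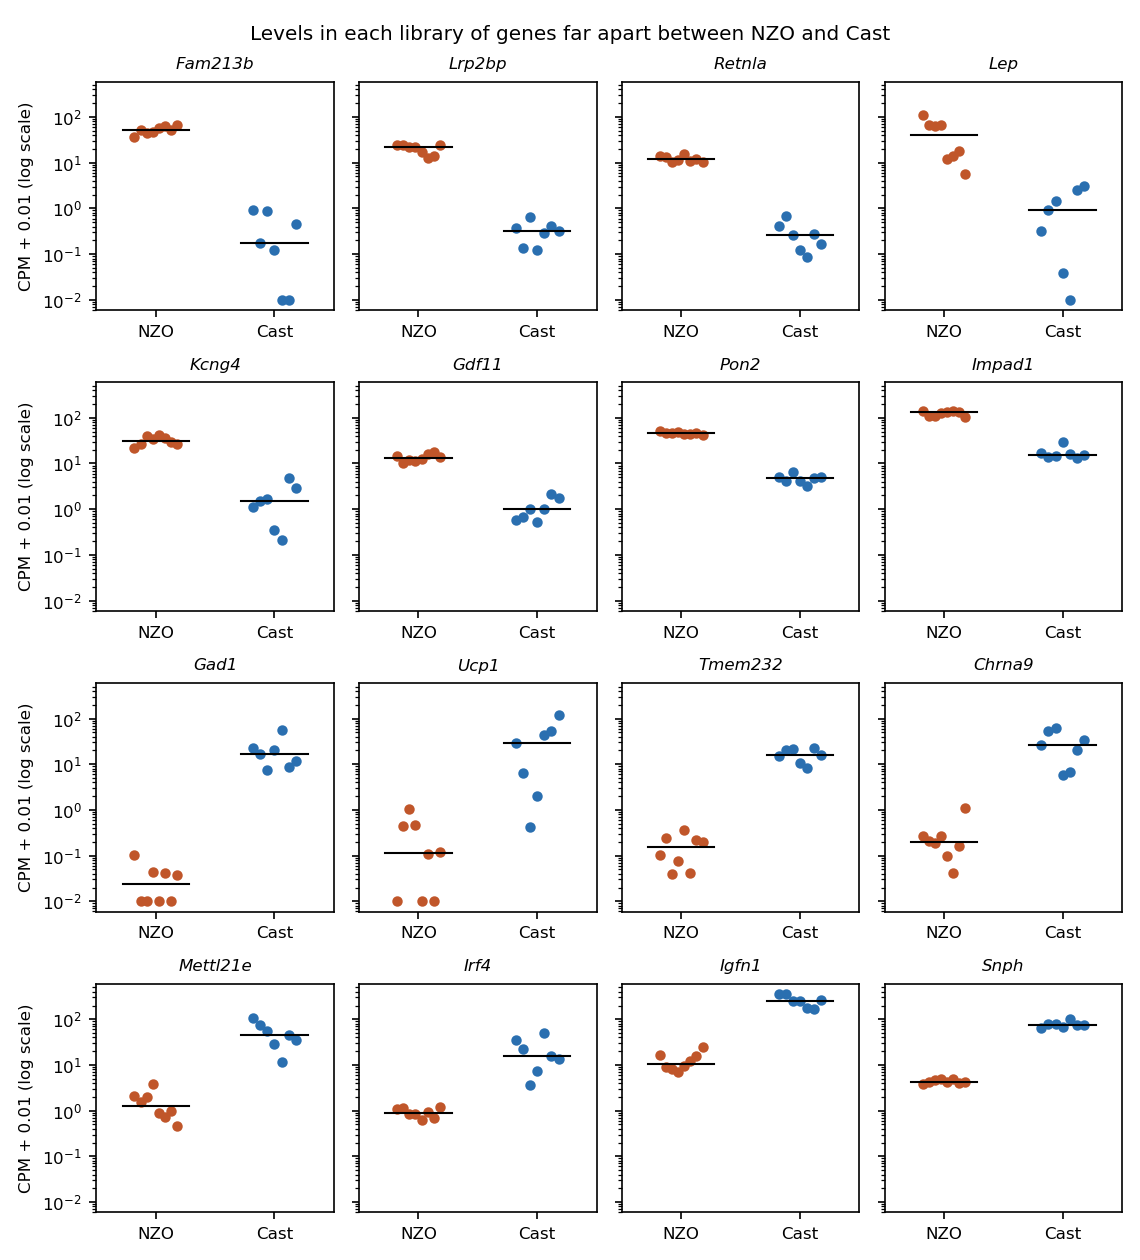
Level of 16 genes in each NZO library (8 points) and each Cast library (7 points), as CPM + 0.01 on a log scale, with a line at the median. The first 8 panels hold genes higher in NZO and the last 8 genes higher in Cast; Ucp1 is the one gene shown whose groups overlap, and Lep falls into 4 higher and 4 lower NZO libraries.

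Measured against the mean of the other 6 strains, Cast differed in 10152 genes (60.9%) and NZO in 3826 genes (22.9%). Both use the same 46 libraries as reference, so the values are set side by side for each gene. Fam213b stood at 0.19 ± 0.15 (SE) for NZO and -6.98 ± 0.29 (SE) for Cast, and the means of the 6 strains ranged over 40.9 to 57.9 CPM, so Cast was the strain that stood apart. Retnla (-0.35 ± 0.21 SE for NZO and -5.85 ± 0.38 SE for Cast) and Impad1 (0.03 ± 0.07 SE for NZO and -2.83 ± 0.10 SE for Cast) had the same form. Pon2 (0.40 ± 0.05 SE for NZO and -2.89 ± 0.07 SE for Cast) and Gdf11 (0.39 ± 0.15 SE for NZO and -3.21 ± 0.22 SE for Cast) departed mainly in Cast. Both were also called higher in NZO than in the other 6 strains (adjusted p = 1.1e-08 and 0.047). Lep, in contrast, was 2.62 (adjusted p = 2.2e-07) for NZO and -2.58 (adjusted p = 4.0e-04) for Cast, and Lrp2bp was 2.49 (adjusted p = 9.8e-20) for NZO and -3.47 (adjusted p = 1.3e-15) for Cast, so NZO and Cast lay on opposite sides of the mean of the other strains. Kcng4 did so too (1.82, adjusted p = 7.0e-09 for NZO and -2.32, adjusted p = 8.5e-08 for Cast). The means of the 6 strains ranged over 1.71 (WSB) to 18.1 CPM for Lep and 0.392 (WSB) to 10.6 CPM for Lrp2bp. For Kcng4 they ranged over 0.512 (PWK) to 44.4 CPM (129), and the means of NZO (31.8 CPM) and Cast (1.76 CPM) both lay inside that range.

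Among the genes higher in Cast, Gad1 (-0.88 ± 0.70 SE for NZO and 8.75 ± 0.29 SE for Cast), Tmem232 (-0.22 ± 0.53 SE for NZO and 6.48 ± 0.21 SE for Cast), Igfn1 (-0.48 ± 0.18 SE for NZO and 3.87 ± 0.14 SE for Cast) and Snph (0.23 ± 0.12 SE for NZO and 4.37 ± 0.10 SE for Cast) were high in Cast against the other strains. Snph encodes syntaphilin, which anchors mitochondria, and was at 3.84 to 4.85 CPM (median 4.32) in the NZO libraries against 65.9 to 100.0 CPM (median 76.5) in the Cast libraries (log2 difference -4.14 ± 0.18 SE, adjusted p = 9.4e-28). Other genes were low in NZO. Tceanc2, a gene with a transcription elongation factor domain, was -3.38 (adjusted p = 6.6e-29) for NZO and 0.59 (adjusted p = 3.8e-07) for Cast, with 0.692 to 1.34 CPM in NZO (median 0.886) and 9.07 to 26.2 CPM in Cast (median 11.1). Pdk1, a kinase that inhibits pyruvate dehydrogenase, was -1.58 (adjusted p = 6.1e-27) for NZO and 0.42 (adjusted p = 3.3e-08) for Cast. Mettl21e was -3.53 (adjusted p = 5.9e-11) for NZO and 1.51 (adjusted p = 1.5e-06) for Cast, with strain means of 3.04 to 54.2 CPM elsewhere. The mean of Cast (51.3 CPM) lay inside that range and the mean of NZO (1.56 CPM) below it.

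**Figure D3:**
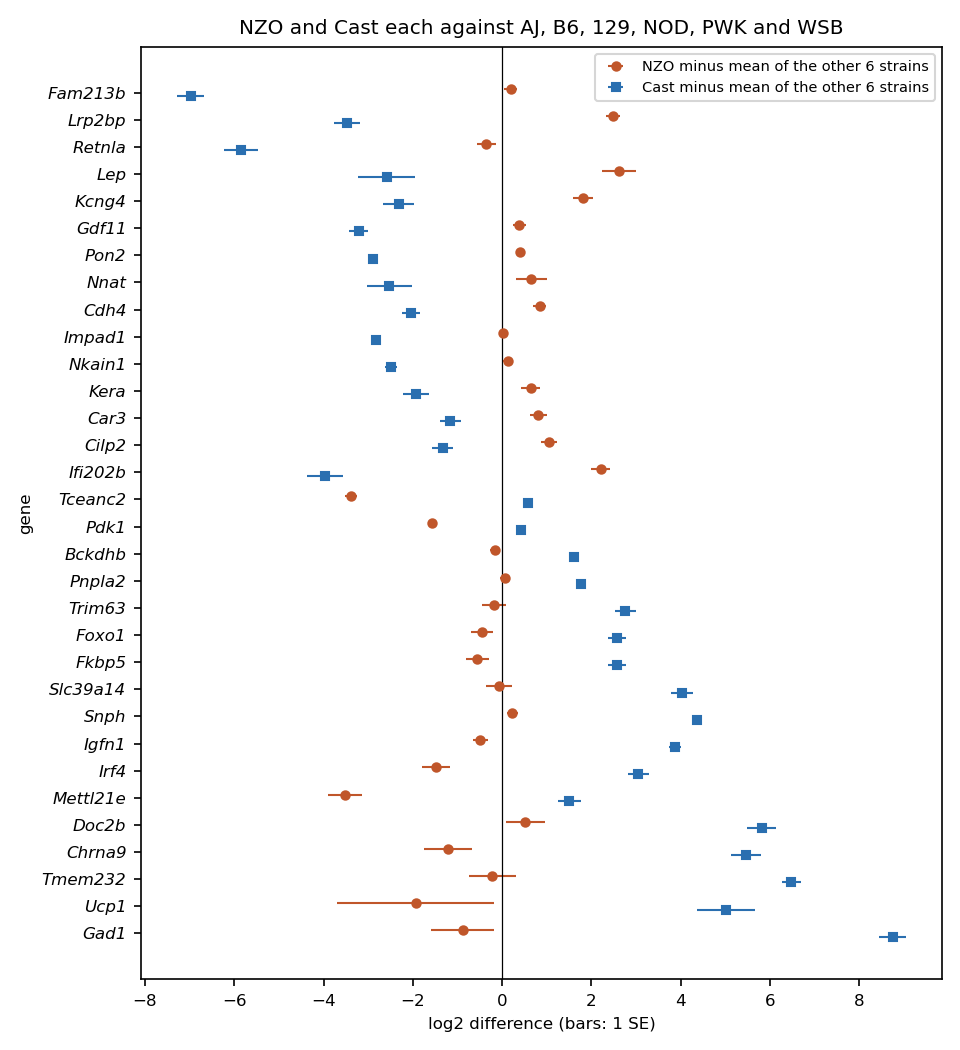
Log2 difference of NZO (circles) and of Cast (squares) from the mean of the other 6 strains for 32 genes, with bars of 1 SE. Fam213b, Impad1, Gad1 and Igfn1 depart from 0 in Cast only by more than 1 log2 unit, Tceanc2 and Pdk1 in NZO only, and Lep, Lrp2bp and Ifi202b in opposite directions in the 2 strains.

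Genes of protein breakdown were mostly higher in Cast and also set Cast libraries apart from each other. Of 18 genes of protein breakdown and autophagy, 13 were higher in Cast and 1 in NZO, with a median log2 difference of -0.90 (all genes: -0.06). These counts were 0 higher in NZO and 8 higher in Cast of 18 (median -0.24) without Cast_1, Cast_5 and Cast_6. At an unadjusted p under 0.05 in the same edgeR fit, 2 were higher in NZO. Trim63 was at 199, 186, 178, 216, 193, 239.9, 269.6 and 236 CPM in NZO_1 to NZO_8. In Cast it was at 3152, 2998 and 3682 CPM in Cast_1, Cast_5 and Cast_6 and at 1129, 291, 115 and 222 CPM in Cast_2, Cast_3, Cast_7 and Cast_8. The groups overlapped, because Cast_7 was below every NZO library (log2 difference -2.95 ± 0.38 SE, adjusted p = 3.6e-09). Without the 3 highest Cast libraries the difference was -1.03 (adjusted p = 0.005).

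Fbxo32, the other classical atrophy ligase, was named here after its values were seen. It was at 332 to 655 CPM (median 451) in the NZO libraries against 339 to 3950 CPM (median 1535) in the Cast libraries (log2 difference -1.99 ± 0.28 SE, adjusted p = 1.8e-08) and at -0.91 (adjusted p = 0.0022) without those libraries. Foxo1, the transcription factor upstream of both, was at 21.4 to 36.1 CPM in NZO (median 26.6) and 34.7 to 484 CPM in Cast (median 131) (log2 difference -3.02 ± 0.32 SE, adjusted p = 1.4e-11), and -1.65 (adjusted p = 1.1e-06) without the 3 libraries. Ctsl, the lysosomal protease cathepsin L, was at 60.6 to 112 CPM (median 83.7) in the NZO libraries against 115 to 1341 CPM (median 191) in the Cast libraries with no overlap between the strains (log2 difference -2.48 ± 0.28 SE, adjusted p = 6.5e-11; -0.87, adjusted p = 1.3e-05 without the 3 libraries). Gabarapl1, a protein of the autophagosome membrane, was at 63.6 to 95.8 CPM in NZO (median 78.3) and 59.2 to 716 CPM in Cast (median 158) (log2 difference -2.02 ± 0.28 SE, adjusted p = 1.9e-08) and lost its call without the 3 libraries (-0.25, adjusted p = 0.18). The member higher in NZO was the receptor gene Eda2r, at 23.5 to 41.5 CPM (median 31.6) in the NZO libraries against 8.74 to 28.6 CPM (median 11.5) in the Cast libraries (log2 difference 1.00 ± 0.26 SE, adjusted p = 8.2e-04). It lost its call without the 3 libraries (0.66, adjusted p = 0.066).

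The same 3 Cast libraries carried high levels of other stress and fasting genes. Sesn1, a stress-induced inhibitor of mTORC1, was at 496, 257 and 638 CPM there, at 94.4, 38.7, 18.2 and 17.1 CPM in the other Cast libraries and at 18.2 to 32.1 CPM in NZO (log2 difference -3.32 ± 0.45 SE, adjusted p = 1.1e-08; without them -0.91, adjusted p = 0.03). Slc39a14, a zinc and iron importer, reached 471, 486 and 891 CPM against 12.9 to 22.1 CPM in NZO (log2 difference -4.10 ± 0.43 SE, adjusted p = 7.6e-12; without them -0.94, adjusted p = 1.2e-05). Fkbp5, a co-chaperone induced by glucocorticoids, was at 17.4 to 63.1 CPM in NZO (median 42.1) and 113 to 683 CPM in Cast (median 258), and here all Cast libraries exceeded all NZO libraries (log2 difference -3.13 ± 0.35 SE, adjusted p = 4.1e-11; without them -2.15, adjusted p = 5.4e-07). Klf15, a glucocorticoid-induced regulator of amino acid use in muscle, was at 15.8 to 25.3 CPM (median 20.8) in the NZO libraries against 30.2 to 309 CPM (median 86.4) in the Cast libraries, also with no overlap (log2 difference -2.57 ± 0.27 SE, adjusted p = 1.2e-11; without them -1.35, adjusted p = 3.6e-07). The labels give nothing that sets these 3 libraries apart.

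The metallothioneins Mt1 and Mt2, which bind zinc and copper, depended wholly on these libraries for their call. Mt1 was at 309, 415 and 529 CPM in Cast_1, Cast_5 and Cast_6, at 26.8, 18.1, 7.32 and 5.18 CPM in the other Cast libraries and at 4.23 to 43.4 CPM in NZO, where NZO_8 was highest (log2 difference -3.94 ± 0.64 SE, adjusted p = 5.6e-07). Without the 3 libraries Mt1 was -0.22 (adjusted p = 0.75) and Mt2 -0.18 (adjusted p = 0.84), against -3.69 (adjusted p = 1.3e-05) with them. In the list of 20 metallothioneins and antioxidant enzymes, 15 were higher in Cast and 0 in NZO, also at an unadjusted p under 0.05 and with DESeq2 (median -0.60). Without the 3 libraries, 10 were higher in Cast and 1 was higher in NZO. Gclm, a subunit of the enzyme that starts glutathione synthesis, was -1.22 (adjusted p = 2.0e-06). Without the 3 libraries its call was lost (-0.12, adjusted p = 0.5). With all genes that matched its transcripts added, the value was -0.58 (adjusted p = 2.2e-08). Those genes include Ppia, which is not a copy of Gclm. The sum averaged 72.1 CPM in NZO and 108 CPM in Cast, so it does not describe Gclm alone.

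Windows before the annotated start of Trim63, Mt1 and Mt2 are shown because these genes differed strongly among the Cast libraries. Each is the 250 bases before the RefSeq start on GRCm38.p6, printed 5′ to 3′ on the strand of the gene (plus in all 3). Capitals mark, in Trim63, TGTTCT, the core of a glucocorticoid receptor half-site, and the reverse complement of GTAAACA, a FoxO-type motif. In Mt1 and Mt2 capitals mark TGCACNC and TGCGCNC, the core of the metal response element, on either strand.
Trim63, chr4:134314870-134315119: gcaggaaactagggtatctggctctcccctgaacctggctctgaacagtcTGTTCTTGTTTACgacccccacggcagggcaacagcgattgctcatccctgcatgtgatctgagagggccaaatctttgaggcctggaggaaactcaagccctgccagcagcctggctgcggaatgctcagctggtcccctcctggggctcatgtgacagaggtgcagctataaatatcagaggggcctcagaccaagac
Mt1, chr8:94178839-94179088: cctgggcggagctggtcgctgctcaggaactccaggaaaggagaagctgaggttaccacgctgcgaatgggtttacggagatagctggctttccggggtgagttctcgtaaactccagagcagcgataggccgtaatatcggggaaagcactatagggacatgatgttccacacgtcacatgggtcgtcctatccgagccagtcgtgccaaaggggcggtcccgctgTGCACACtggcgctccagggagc
Mt2, chr8:94172368-94172617: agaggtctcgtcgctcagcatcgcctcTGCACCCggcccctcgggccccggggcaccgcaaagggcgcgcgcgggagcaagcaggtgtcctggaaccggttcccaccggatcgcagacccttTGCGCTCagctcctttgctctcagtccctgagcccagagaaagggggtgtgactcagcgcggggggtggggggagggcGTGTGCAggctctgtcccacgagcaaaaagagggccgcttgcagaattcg
In Trim63 the 2 motifs stand side by side, 200 to 195 and 194 to 188 bases before the start. Among 32851 promoter windows of this length, 3.2% held GTAAACA, 16.1% held TGTTCT and 0.7% held both, on either strand. A metal response core stood in 21.4% of windows and more than 1 in 5.2%. The window of Mt1 held 1 and that of Mt2 held 3. The windows depend on the annotated start and need not hold the whole control region, and cores outside them were not counted. The windows of 13 genes that the heat map of the libraries shows were looked up. Of these, 10 had a window, 2 of these held GTAAACA (Trim63 and Igfn1) and 1 held TGTTCT. A match is a description of the letters in the reference genome and says nothing of binding in these mice, and Cast alleles were not examined.

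**Figure D4:**
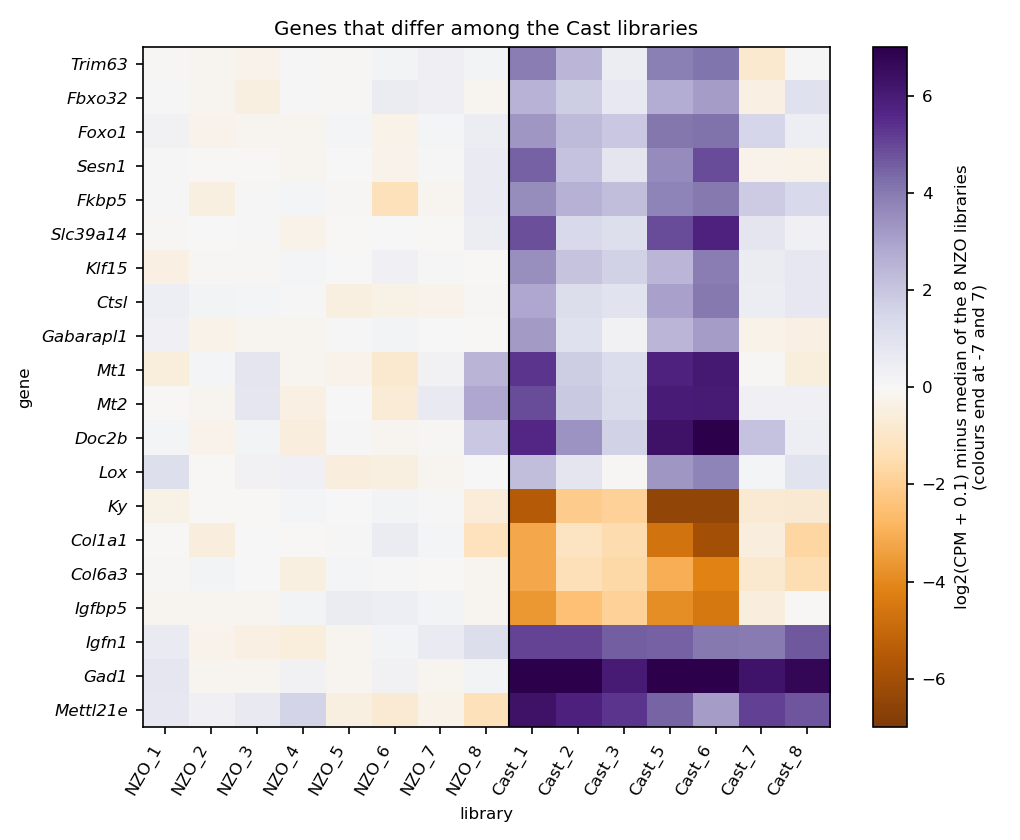
Level of 20 genes in each of the 15 libraries as log2(CPM + 0.1) minus the median of the 8 NZO libraries. Cast_1, Cast_5 and Cast_6 are high in the genes from Trim63 to Lox and low in Ky and the matrix genes Col1a1, Col6a3 and Igfbp5, whereas Igfn1, Gad1 and Mettl21e are high in all 7 Cast libraries.

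Insulin and growth factor signalling genes were more often higher in Cast than in NZO, and the excess was gone without the 3 libraries. Of 33 genes, 5 were higher in NZO and 19 were higher in Cast, with a median log2 difference of -0.38; without Cast_1, Cast_5 and Cast_6 the counts were 5 higher in NZO and 4 higher in Cast of 33 (median -0.06). The insulin receptor gene Insr was at 109.6 to 124 CPM in NZO (median 116) and 76.5 to 266 CPM in Cast (median 118) (log2 difference -0.39 ± 0.14 SE, adjusted p = 0.019), and without the 3 libraries its direction turned (0.34, adjusted p = 0.0021). Leaving out Cast_1, Cast_5 or Cast_6 alone already ended its call (-0.32, adjusted p = 0.066, -0.25, adjusted p = 0.13 and -0.20, adjusted p = 0.21). Irs1, the main insulin receptor substrate, was not called (log2 difference -0.44 ± 0.28 SE, adjusted p = 0.18). Regulators of insulin action differed in both directions. Grb14, an adaptor that blocks the insulin receptor, was higher in NZO, with 8.42 to 27.1 CPM (median 18.8) in the NZO libraries against 2.42 to 14 CPM (median 7.82) in the Cast libraries (log2 difference 1.32 ± 0.21 SE, adjusted p = 3.7e-07). Trib3, a pseudokinase that binds Akt, was -1.66 (adjusted p = 7.3e-06), -0.94 (adjusted p = 0.0012) without Cast_6, and not called without the 3 libraries (-0.41, adjusted p = 0.19). Eif4ebp1, a brake on translation downstream of mTORC1, was -1.75 (adjusted p = 7.2e-07) and -0.25 (adjusted p = 0.35) without the 3 libraries. Tbc1d4 (AS160), which holds glucose transporters inside the fibre until insulin acts, was higher in NZO, with 48 to 105 CPM in NZO (median 58) and 18.6 to 56.2 CPM in Cast (median 45.8) (log2 difference 0.70 ± 0.17 SE, adjusted p = 3.5e-04), as was the kinase gene Rps6kb1 (0.38, adjusted p = 1.1e-04).

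Glucose transport and glycolysis differed gene by gene. Slc2a4, the insulin-responsive transporter GLUT4, was lower in NZO, with 180.3 to 408 CPM (median 298) in the NZO libraries against 384 to 747 CPM (median 535) in the Cast libraries (log2 difference -0.87 ± 0.10 SE, adjusted p = 2.9e-10; without Cast_1, Cast_5 and Cast_6 -0.61, adjusted p = 5.3e-06). The groups overlapped slightly. Against the other 6 strains it was -0.36 (adjusted p = 3.5e-04) for NZO and 0.51 (adjusted p = 1.1e-07) for Cast, below and above their mean. Slc2a1, the basal transporter, was -0.81 (adjusted p = 0.0023), and its direction turned without the 3 libraries (0.41, adjusted p = 0.039); without Cast_6 alone it was -0.48 (adjusted p = 0.056). Hexokinase 2 (Hk2), which traps glucose, was not called (log2 difference -0.19 ± 0.15 SE, adjusted p = 0.28). Over the list of 25 genes of glucose uptake and glycolysis, 11 were higher in NZO and 7 were higher in Cast, with a median log2 difference of 0.09 (7 higher in NZO and 5 higher in Cast without Cast_1, Cast_5 and Cast_6).

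The glycolytic genes higher in NZO included Pgam2, the muscle phosphoglycerate mutase, at 1043 to 1321 CPM in NZO (median 1174) and 158 to 794 CPM in Cast (median 435) (log2 difference 1.37 ± 0.17 SE, adjusted p = 8.4e-10). Pfkfb1 and Pfkfb4, bifunctional enzymes that set the level of the glycolytic activator fructose-2,6-bisphosphate, were 1.49 (adjusted p = 2.9e-13) and 1.14 (adjusted p = 2.8e-05). NZO lay above Cast in every library for Pgam2 and Pfkfb1. Of 17 glycogen genes, 3 were higher in NZO and 5 were higher in Cast, with a median log2 difference of 0.13 (7 higher in NZO and 6 higher in Cast without Cast_7 and Cast_8). Phkg1, the catalytic subunit of muscle phosphorylase kinase, was at 287 to 379 CPM (median 353) in the NZO libraries against 59.5 to 186 CPM (median 163) in the Cast libraries (log2 difference 1.36 ± 0.13 SE, adjusted p = 1.2e-12) and its regulatory partner Phkb was 0.47 (adjusted p = 9.6e-05). Ppp1r3c, which targets a phosphatase to glycogen, was 0.72 (adjusted p = 0.0013), a call lost without Cast_1, Cast_5 and Cast_6 (0.46, adjusted p = 0.077), and the glycogen phosphatase gene Epm2a (laforin) was higher in Cast (-0.51, adjusted p = 2.1e-09). Phkg1 shares bases with Chchd2 on the same strand, so its reads may be split.

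Fat cell genes did not move together. Of 12 white adipocyte markers, 3 were higher in NZO and 3 in Cast, and their summed level was 785 to 1384 CPM in NZO (median 1063) and 377 to 1693 CPM in Cast (median 1110). Fewer cells of a type and less RNA per cell cannot be told apart in whole-tissue RNA. Adipoq (adiponectin), a defining fat cell transcript, was at 12.8 to 84.1 CPM in NZO (median 28.4) and 2.81 to 74.9 CPM in Cast (median 37.9) (log2 difference -0.09 ± 0.47 SE, adjusted p = 0.89), so Lep differed without a difference in Adipoq being called. Aqp7, the glycerol channel of fat cells, was higher in NZO (1.81, adjusted p = 3.1e-11). Cfd (adipsin), Pck1 and the beta-3 adrenergic receptor gene Adrb3 were higher in Cast (-2.55, adjusted p = 9.2e-06, -1.92, adjusted p = 2.0e-04 and -3.74, adjusted p = 3.4e-05). Cfd was at 13.8 to 27.8 CPM (median 21.9) in the NZO libraries against 17.8 to 212 CPM (median 158) in the Cast libraries.

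Brown fat markers were higher in Cast. Of 9 tested, 7 were higher in Cast and 0 in NZO (also 0 at an unadjusted p under 0.05 and with DESeq2), and 6 were higher in Cast without Cast_1, Cast_5 and Cast_6. Ucp1, the uncoupling protein of thermogenic fat, was at 28.7, 6.47, 0.406, 2, 42.5, 52.4 and 122 CPM in the 7 Cast libraries and at most 1.05 CPM in NZO (log2 difference -6.95 ± 1.19 SE, adjusted p = 1.8e-06). Cast_3 was below the highest NZO library, so the groups overlapped. Cidea and Elovl3, also genes of brown fat, were -3.66 (adjusted p = 2.4e-07) and -3.95 (adjusted p = 6.7e-05). The means of the other 6 strains for Ucp1 ranged over 0.00973 to 114 CPM. The summed level of the brown fat markers in the table was 56.9 to 109 CPM in NZO (median 88.4) and 68.1 to 336 CPM in Cast (median 182), and the part that brown fat cells in the samples had in it was not tested.

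Fatty acid synthesis genes were more often higher in Cast than in NZO with all libraries. Over 21 genes, 2 were higher in NZO and 11 were higher in Cast, with a median log2 difference of -0.82 (30.0% of all genes were higher in Cast). Thrsp, a lipogenic regulator, was at 2.75 to 12.6 CPM in NZO (median 4.98) and 11.5 to 85 CPM in Cast (median 23.8) (log2 difference -2.56 ± 0.49 SE, adjusted p = 1.1e-05). Fasn, fatty acid synthase, was at 19 to 195 CPM (median 93.7) in the NZO libraries against 75.5 to 572 CPM (median 273) in the Cast libraries (log2 difference -1.48 ± 0.55 SE, adjusted p = 0.02), with NZO_1 to NZO_4 at 140.5, 195, 181 and 144 CPM and NZO_5 to NZO_8 at 30.9, 46.8, 37.5 and 19 CPM. Its call was lost without Cast_7 (-1.19, adjusted p = 0.066), without Cast_7 and Cast_8 (-1.04, adjusted p = 0.12), and without Cast_1 and Cast_3 (-1.35, adjusted p = 0.055). Scd1, the stearoyl-CoA desaturase, was -1.05 (adjusted p = 0.035), and leaving out any 1 of Cast_1, Cast_3, NZO_5, NZO_6, NZO_7 or NZO_8 ended its call, for instance -0.84 (adjusted p = 0.11) without Cast_1. It was also lost without Cast_1, Cast_5 and Cast_6 (-1.02, adjusted p = 0.082), without Cast_7 and Cast_8 (-1.04, adjusted p = 0.056), and without Cast_1 and Cast_3 (-0.63, adjusted p = 0.26). Elovl6, which elongates palmitate, was -1.49 (adjusted p = 0.039) and was not called without any 1 of 7 libraries, for instance -0.86 (adjusted p = 0.25) without Cast_3. Without Cast_7 and Cast_8 it was -1.37 (adjusted p = 0.07), and without Cast_1 and Cast_3 -0.69 (adjusted p = 0.4). Gpam, the first enzyme of glycerolipid synthesis, went the other way at 172 to 291 CPM in NZO (median 183) and 42 to 206 CPM in Cast (median 143) (log2 difference 0.80 ± 0.17 SE, adjusted p = 7.5e-05). With Cast_1 and Cast_3, the libraries high in hepatocyte markers, left out, 4 of the genes were higher in Cast and 2 in NZO. Over all genes, 4721 of 16961 were higher in Cast in that set. The number of list genes higher in Cast was 7 without Cast_7 and Cast_8 and 14 without Cast_1, Cast_5 and Cast_6.

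Among 20 genes of fatty acid uptake and lipid droplets, 5 were higher in NZO and 11 were higher in Cast, with a median log2 difference of -0.34. Pnpla2, the main triglyceride lipase (ATGL), was lower in NZO, with 172 to 254 CPM (median 204) in the NZO libraries against 343 to 1172 CPM (median 453) in the Cast libraries (log2 difference -1.69 ± 0.16 SE, adjusted p = 1.1e-13; -1.02, adjusted p = 5.3e-10 without Cast_1, Cast_5 and Cast_6). The droplet coat proteins Plin3 and Plin5 were lower in NZO (-1.62, adjusted p = 4.6e-19 and -0.97, adjusted p = 7.5e-06). G0s2, the inhibitor of that lipase, was higher in NZO, with 5.1 to 19.1 CPM in NZO (median 10.2) and 0.863 to 7.6 CPM in Cast (median 2.35) (log2 difference 1.64 ± 0.36 SE, adjusted p = 8.7e-05). Pnpla2 and Plin3 did not overlap between the strains, and G0s2 did. Fabp3, the fatty acid carrier of muscle, and Acsl3, an acyl-CoA synthetase, were higher in NZO (0.81, adjusted p = 7.5e-06 and 0.83, adjusted p = 0.0058). Acsl3 lost its call without Cast_1, Cast_5 and Cast_6 (0.59, adjusted p = 0.12). Cd36, the fatty acid transporter, was not called (0.15, adjusted p = 0.22), though it was higher in NZO without Cast_1 (0.26, adjusted p = 0.018), without Cast_1 and Cast_3 (0.24, adjusted p = 0.043), and without Cast_1, Cast_5 and Cast_6 (0.26, adjusted p = 0.049). Lpl, lipoprotein lipase, was -0.37 (adjusted p = 0.011), and -0.24 (adjusted p = 0.095) without Cast_1 and -0.04 (adjusted p = 0.84) without Cast_1, Cast_5 and Cast_6.

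Breakdown of branched-chain amino acids was the metabolic list with the largest share of members higher in Cast: 17 of 20 against 1 higher in NZO, with a median of -0.76. With Cast_1, Cast_5 and Cast_6 left out, the counts were 1 higher in NZO and 13 higher in Cast of 20 (median -0.57). Bckdhb and Dbt encode subunits of the branched-chain ketoacid dehydrogenase complex, the committed step. Bckdhb was at 11.5 to 22.9 CPM (median 17.8) in the NZO libraries against 41.8 to 100.3 CPM (median 44.7) in the Cast libraries (log2 difference -1.78 ± 0.16 SE, adjusted p = 2.6e-14) and Dbt at 13.3 to 33.6 CPM in NZO (median 24.5) and 32.8 to 143 CPM in Cast (median 43) (log2 difference -1.47 ± 0.21 SE, adjusted p = 4.2e-08). Ivd, the next enzyme of leucine breakdown, was at 38.1 to 85 CPM (median 66.4) in the NZO libraries against 99.1 to 315 CPM (median 127) in the Cast libraries (log2 difference -1.36 ± 0.15 SE, adjusted p = 4.7e-11). The member higher in NZO was Bckdk, the kinase that switches the complex off, at 94.4 to 118 CPM in NZO (median 114) and 73.4 to 99.8 CPM in Cast (median 92) (log2 difference 0.30 ± 0.06 SE, adjusted p = 2.2e-05). Without the 3 libraries Dbt was -0.63 (adjusted p = 0.0037) and Ivd -0.78 (adjusted p = 2.5e-07). For Bckdhb and Ivd the groups did not overlap, with or without the 3 libraries, and for Bckdk they did.

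Nuclear genes of oxidative phosphorylation were slightly higher in Cast. Of 79, 6 were higher in NZO and 43 were higher in Cast, with a median log2 difference of -0.18, and 8 had all Cast libraries above all NZO libraries (7.15% of all genes). With Cast_1 and Cast_3 left out, 26 were higher in Cast. Cox8a, a subunit of cytochrome c oxidase, was at 14.8 to 21.3 CPM (median 17.4) in the NZO libraries against 28.7 to 48.6 CPM (median 36.5) in the Cast libraries (log2 difference -1.05 ± 0.12 SE, adjusted p = 6.5e-11). The largest differences of the list, Atp5g2 (-3.98) and Cycs (-1.47), were -0.05 (adjusted p = 0.5) and 0.09 (adjusted p = 0.38) with the counts of their near-identical copies added. Ndufv1, a catalytic subunit of complex I, and Ndufs5 were higher in NZO (0.28, adjusted p = 3.5e-04 and 0.42, adjusted p = 2.8e-05). Of 13 protein genes of the mitochondrial genome, 4 were higher in NZO and 2 in Cast. mt-Nd3 and mt-Nd4l were 0.66 (adjusted p = 1.4e-06) and 0.64 (adjusted p = 2.5e-06), and mt-Nd2 and mt-Atp6 were -0.58 (adjusted p = 1.9e-05) and -0.49 (adjusted p = 3.5e-04); with nuclear copies added mt-Atp6 was -0.05 (adjusted p = 0.72).

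Of 26 genes of the citric acid cycle and pyruvate entry, 3 were higher in NZO and 8 in Cast (25.5% and 30.0% of all genes, median log2 difference -0.03). The counts were 2 higher in NZO and 4 higher in Cast without Cast_1, Cast_5 and Cast_6 and 4 higher in NZO and 3 higher in Cast without Cast_1 and Cast_3. Pdk1 was at 25.4 to 30.0 CPM in NZO (median 28.1) and 74.4 to 143 CPM in Cast (median 116), with no overlap (log2 difference -2.0 ± 0.08 SE, adjusted p = 3.2e-28), and Idh2, the mitochondrial isocitrate dehydrogenase, was higher in NZO (0.40, adjusted p = 0.0012). Pdk4, the fasting-induced kinase of the same family, was not called (log2 difference 0.01 ± 0.28 SE, adjusted p = 0.97). Of 22 genes of fatty acid oxidation, 4 were higher in NZO and 6 in Cast (25.5% and 30.0% of all genes, median log2 difference 0.00), so the list was divided (7 higher in NZO and 3 higher in Cast without Cast_1 and Cast_3). Acadm, the medium-chain dehydrogenase, was at 267 to 381 CPM (median 299.9) in the NZO libraries against 133 to 241 CPM (median 204) in the Cast libraries (log2 difference 0.66 ± 0.09 SE, adjusted p = 2.2e-08), and Ech1, an isomerase for unsaturated fatty acids, was 0.58 (adjusted p = 3.4e-07). Echs1, the short-chain hydratase, was higher in Cast, with 54.3 to 79 CPM in NZO (median 69.1) and 118 to 172 CPM in Cast (median 133) (log2 difference -1.04 ± 0.09 SE, adjusted p = 5.4e-15), as was the electron carrier gene Etfa (-0.38, adjusted p = 5.3e-06). Of 18 genes of PPAR and fasting response, 1 was higher in NZO and 5 in Cast (25.5% and 30.0% of all genes): Ppara, the fatty acid sensor, was -1.34 (adjusted p = 2.5e-10) and the coactivator gene Ppargc1b 0.57 (adjusted p = 8.8e-04). Without Cast_1, Cast_5 and Cast_6 the counts were 2 higher in NZO and 3 higher in Cast, and Ppargc1b was 0.31 (adjusted p = 0.09). Ppargc1a and Ucp3 were not called (-0.29, adjusted p = 0.39 and -0.33, adjusted p = 0.17).

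Slow-fibre genes were more often higher in NZO than in Cast with all libraries. Of 15, 9 were higher in NZO and 4 were higher in Cast, with a median log2 difference of 0.65. The count was 3 higher in NZO and 2 higher in Cast without Cast_1, Cast_5 and Cast_6 (21.4% and 22.1% of all genes). The summed level of the list was 11160, 4658, 6388 and 6712 CPM in NZO_1 to NZO_4. It was 4094, 3028, 3372 and 3409 CPM in NZO_5 to NZO_8 and 3045 to 4601 CPM in Cast (median 3955). Myl3, the slow ventricular myosin light chain, was at 168 to 664 CPM (median 319) in the NZO libraries against 127 to 187 CPM (median 136) in the Cast libraries (log2 difference 1.25 ± 0.21 SE, adjusted p = 1.0e-06), and NZO_1 was highest. Tnni1, slow troponin I, was 0.85 (adjusted p = 0.0056) and lost its call with the summed levels of cell type markers as covariates (0.47, adjusted p = 0.13) and without Cast_1, Cast_5 and Cast_6 (0.70, adjusted p = 0.075). Atp2a2, the calcium pump of slow fibres, was higher in NZO in every library at 717 to 2359 CPM in NZO (median 941) and 514 to 633 CPM in Cast (median 587) (log2 difference 1.05 ± 0.19 SE, adjusted p = 7.5e-06), and Myl6b was 1.13 (adjusted p = 6.4e-04). Pln, the inhibitor of that pump, was higher in Cast, with 2.31 to 5.16 CPM (median 3.14) in the NZO libraries against 11.1 to 32.7 CPM (median 16) in the Cast libraries, again without overlap (log2 difference -2.64 ± 0.21 SE, adjusted p = 2.0e-16). The stretch-response genes Ankrd2 and Csrp3 were higher in Cast (-1.79, adjusted p = 4.1e-05 and -1.39, adjusted p = 0.0013). Without Cast_1, Cast_5 and Cast_6 they were -0.27 (adjusted p = 0.53) and -0.52 (adjusted p = 0.3).

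Myosin heavy chains were compared as shares of their summed count per kilobase of transcript. Myh4, the fastest type, held 86.9 ± 3.05% (SD, n = 8) in NZO and 82.6 ± 3.98% (SD, n = 7) in Cast. Myh1 held 6.41 ± 1.19% in NZO and 11.4 ± 2.67% in Cast. The slow chain Myh7 held 2.47 ± 1.6% and 1.81 ± 0.293%, with 5.98% in NZO_1, and Myh2 4.22 ± 1.24% and 4.1 ± 1.24%. By level, Myh1 was higher in Cast (log2 difference -0.83 ± 0.12 SE, adjusted p = 3.2e-08), and Myh7, Myh2 and Myh4 were not called (0.42, adjusted p = 0.17, 0.04, adjusted p = 0.84 and 0.08, adjusted p = 0.45). Of 16 fast-fibre genes, 2 were higher in NZO and 4 were higher in Cast, with a median log2 difference of 0.02. The fast troponins Tnnt3 and Tnni2 were higher in Cast in every library (-0.99, adjusted p = 1.4e-13 and -0.43, adjusted p = 3.7e-05), and Casq1, the calcium store protein, was higher in NZO (0.49, adjusted p = 0.011), but not without Cast_1, Cast_5 and Cast_6 (0.01, adjusted p = 0.96) or in the 15 libraries alone (0.49, adjusted p = 0.15).

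The abundant genes with the largest difference in favour of NZO were of muscle and matrix. Car3, the carbonic anhydrase of muscle and fat, was at 2025 to 3078 CPM in NZO (median 2397) and 253 to 835 CPM in Cast (median 671), with no overlap (log2 difference 1.97 ± 0.29 SE, adjusted p = 5.7e-08). Ky, a protease-like protein of the Z-disc whose loss deforms the spine, was at 164 to 286 CPM (median 251) in the NZO libraries against 2.67 to 152 CPM (median 58) in the Cast libraries, with 5.36, 2.67 and 2.67 CPM in Cast_1, Cast_5 and Cast_6 (log2 difference 1.97 ± 0.43 SE, adjusted p = 8.5e-05; without them 1.20, adjusted p = 1.0e-04). Rgs5, a marker of pericytes, was at 259 to 334 CPM in NZO (median 286) and 64.9 to 122 CPM in Cast (median 108) (log2 difference 1.57 ± 0.10 SE, adjusted p = 3.5e-20), and Igfbp5, a secreted binder of insulin-like growth factors, was 1.69 (adjusted p = 3.9e-05), 1.01 (adjusted p = 0.0028) without Cast_1, Cast_5 and Cast_6 and 3.11 (adjusted p = 3.0e-13) without Cast_7 and Cast_8.

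Collagen and matrix genes were higher in NZO. Of 22, 16 were higher in NZO and 1 was higher in Cast, with a median log2 difference of 0.93 (25.5% of all genes were higher in NZO), and without Cast_1, Cast_5 and Cast_6 they were 14 higher in NZO and 1 higher in Cast of 22 (median 0.58). Against the mean of the other 6 strains, 3 were higher in NZO, whereas in Cast 16 were lower and 3 higher. Over all genes, 22.9% differed in NZO and 60.9% in Cast in that comparison. Col1a1 was at 195 to 652 CPM (median 453) in the NZO libraries against 6.94 to 322 CPM (median 139) in the Cast libraries (log2 difference 1.75 ± 0.37 SE, adjusted p = 6.2e-05), with 48.5, 18.1 and 6.94 CPM in those libraries, and 1.07 (adjusted p = 0.0016) without them. Col1a2 was 1.82 (adjusted p = 2.0e-06), and 1.21 (adjusted p = 8.4e-05) without them. Col6a3, a collagen of the fibre's basement layer, was at 96.7 to 152 CPM in NZO (median 134) and 7.14 to 73.7 CPM in Cast (median 43.3) and did not overlap (log2 difference 1.83 ± 0.24 SE, adjusted p = 4.3e-09). Lox, which cross-links collagen, was the member higher in Cast (-2.12, adjusted p = 3.9e-07), and lost its call without the 3 libraries (-0.40, adjusted p = 0.21). The markers of tendon, vessel and fibroblast moved with these genes, as the next values show, and their part in the matrix result was not tested.

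Some lists of tissue markers, matrix, immune and stress genes that follow had 0 called in a direction by edgeR. With all libraries, the count was then also 0 at an unadjusted p under 0.05 and with DESeq2, except where given. With Cast libraries left out, it was also 0 at an unadjusted p under 0.05, except where given, and DESeq2 was not run. Of 10 tendon markers, 9 were higher in NZO and 0 were higher in Cast, with a median log2 difference of 1.64, and the summed level was 544 to 1049 CPM in NZO (median 727) and 166 to 423 CPM in Cast (median 335), with no overlap. Cilp and Cilp2, matrix proteins of cartilage and tendon, were 1.92 (adjusted p = 7.4e-12) and 2.39 (adjusted p = 6.6e-10). Of 12 endothelial markers, 11 were higher in NZO and 0 in Cast, with a summed level of 457 to 589 CPM in NZO (median 507) and 340.5 to 390.3 CPM in Cast (median 368). Cdh5 (VE-cadherin) was at 73.2 to 86.4 CPM (median 82.5) in the NZO libraries against 36.7 to 52.9 CPM (median 47.7) in the Cast libraries (log2 difference 0.84 ± 0.06 SE, adjusted p = 6.6e-17), and Cldn5 and Kdr, also of endothelium, were 0.95 (adjusted p = 2.8e-07) and 0.70 (adjusted p = 5.4e-08). Of 10 smooth muscle and pericyte markers, 5 were higher in NZO and 0 in Cast, among them Lmod1 (1.33, adjusted p = 1.7e-09) and Notch3 (0.64, adjusted p = 5.6e-10).

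Of 10 fibroblast markers, 6 were higher in NZO and 0 in Cast, with Smoc2 at 1.38 (adjusted p = 1.2e-14) and Lum (lumican) at 1.22 (adjusted p = 5.6e-06), although the summed level was 1207 to 1545 CPM in NZO (median 1369) and 891 to 1651 CPM in Cast (median 1400). The fibroblast counts were 5 higher in NZO and 2 higher in Cast without Cast_1, Cast_5 and Cast_6. Against the mean of the other 6 strains, all 10 were lower in Cast and 3 were lower in NZO. Of 11 Schwann cell markers, 5 were higher in NZO and 1 in Cast (median log2 difference 0.57), and 0 were higher in NZO without Cast_1, Cast_5 and Cast_6 (3 at an unadjusted p under 0.05, edgeR). Of 9 satellite cell markers, 4 were higher in NZO and 3 in Cast (median log2 difference 0.51), with Chodl higher in NZO (1.61, adjusted p = 2.8e-11) and Myf5, a myogenic factor, higher in Cast (-1.88, adjusted p = 2.7e-08). Of 7 erythrocyte markers, 4 were higher in NZO and 0 in Cast (median log2 difference 1.04), with the band 3 gene Slc4a1 at 2.33 (adjusted p = 7.7e-04). Of 12 hepatocyte markers, 0 were higher in NZO and 0 in Cast (median log2 difference -1.80), though 3 were higher in Cast at an unadjusted p under 0.05 and 1 with DESeq2. Without Cast_7 and Cast_8, 3 were called higher in Cast. Of 8 keratinocyte markers, 0 were higher in NZO and 7 in Cast (median log2 difference -4.27), and rested on Cast_8: Krt14 was -5.45 (adjusted p = 0.011) and -0.07 (adjusted p = 0.98) without it. Without Cast_7 and Cast_8, 1 was higher in Cast and 1 in NZO, and Krt14 was -0.36 (adjusted p = 0.9). Of 10 skeletal muscle markers, 1 was higher in NZO and 2 in Cast (median log2 difference -0.01) (0 higher in NZO and 1 higher in Cast without Cast_1, Cast_5 and Cast_6, with 1 higher in NZO at an unadjusted p under 0.05).

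**Figure D5:**
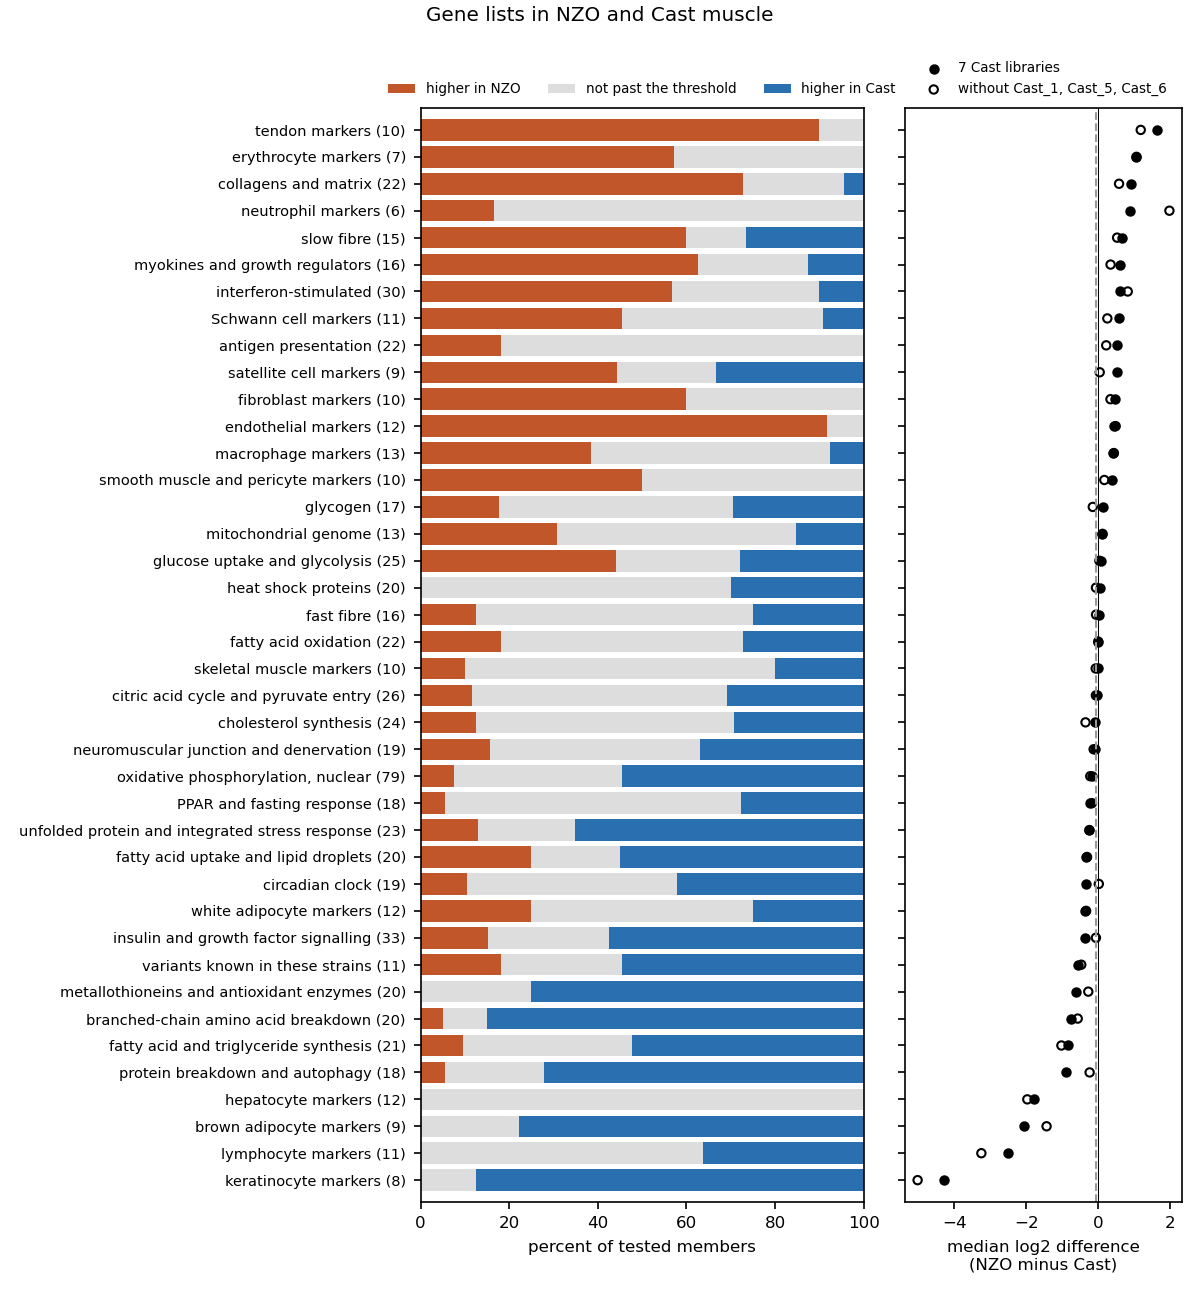
For each of 40 gene lists (number of tested members in brackets), the percent of members higher in NZO, not past the threshold, and higher in Cast (left), and the median log2 difference with all 7 Cast libraries (filled) and without Cast_1, Cast_5 and Cast_6 (open) (right); the dashed line is the median of all tested genes. Tendon, collagen and endothelial lists lie to the NZO side and branched-chain amino acid and protein breakdown lists to the Cast side, the last moving from -0.90 to -0.24 without the 3 libraries.

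Interferon-stimulated genes were higher in NZO. Of 30, 17 were higher in NZO and 3 were higher in Cast, with a median log2 difference of 0.60, and 6 had all NZO libraries above all Cast libraries (8.33% of all genes). With Cast_1, Cast_5 and Cast_6 left out, the counts were 19 higher in NZO and 3 higher in Cast of 30 (median 0.82). Oas2, a sensor of double-stranded RNA, was at 1.81 to 3.32 CPM in NZO (median 2.18) and 0.0738 to 0.89 CPM in Cast (median 0.31) (log2 difference 2.67 ± 0.32 SE, adjusted p = 3.2e-10), and Ifi44 was 3.12 (adjusted p = 6.3e-08). Ifit3b was 2.75 (adjusted p = 6.9e-09) and 1.62 (adjusted p = 1.1e-06) with its copy Ifit3. These levels were a few CPM. Mx2, an antiviral GTPase, was higher in Cast (-5.31, adjusted p = 9.4e-15), and -0.92 (adjusted p = 0.011) with its copy Mx1. Cast_5 was far above the other Cast libraries in Oasl1 (11.5 CPM), Mx2 (8.21 CPM) and Rsad2 (8.71 CPM). Without it Rsad2 went from 0.62 (adjusted p = 0.15) to 1.79 (adjusted p = 2.1e-06), and Oasl1 from -2.07 (adjusted p = 0.0016) to -0.56 (adjusted p = 0.35). The 2 genes were, without Cast_1, Cast_5 and Cast_6, 2.27 (adjusted p = 1.5e-07) and 1.06 (adjusted p = 0.086).

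Ifi202b, a DNA-binding interferon-inducible gene known to vary between strains, was at 3.42 to 13.2 CPM (median 6.24) in the NZO libraries against 0 to 0.295 CPM (median 0) in the Cast libraries, with no overlap (log2 difference 6.18 ± 0.45 SE, adjusted p = 1.0e-17). Of 22 antigen presentation genes, 4 were higher in NZO and 0 in Cast (median log2 difference 0.53). The count higher in NZO was 20 without Cast_7 and Cast_8 and 1 without Cast_1, Cast_5 and Cast_6, so it depended on which Cast libraries were kept. H2-D1, a class I molecule, was 1.26 (adjusted p = 4.0e-07) and 0.96 (adjusted p = 2.2e-04) with H2-K1 added. Of 13 macrophage markers, 5 were higher in NZO and 1 in Cast (median log2 difference 0.41). The counts were 9 higher in NZO and 1 higher in Cast without Cast_7 and Cast_8, and 4 higher in NZO and 0 higher in Cast without Cast_1, Cast_5 and Cast_6. The summed level was 137 to 415 CPM in NZO (median 148) and 96.1 to 245 CPM in Cast (median 158). Adgre1 (F4/80), a defining macrophage marker, was at 3.55 to 11.2 CPM in NZO (median 4.65) and 0.888 to 2.75 CPM in Cast (median 1.42), without overlap (log2 difference 1.75 ± 0.27 SE, adjusted p = 2.6e-07). Without NZO_8, its highest library, it was 1.51 (adjusted p = 2.3e-06). Cd163, of resident macrophages, was higher in Cast (-0.67, adjusted p = 0.0061), but not called without Cast_1, Cast_5 and Cast_6 (-0.34, adjusted p = 0.26) or in the 15 libraries alone (-0.69, adjusted p = 0.1). Of 6 neutrophil markers, 1 was higher in NZO and 0 in Cast (median log2 difference 0.88), and 2 were higher in NZO without Cast_7 and Cast_8 and 0 without Cast_1, Cast_5 and Cast_6 (1 at an unadjusted p under 0.05, edgeR).

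Of 23 genes of the unfolded protein and integrated stress response, 3 were higher in NZO and 15 in Cast (median log2 difference -0.26), and without Cast_1, Cast_5 and Cast_6 3 higher in NZO and 7 higher in Cast of 23 (median -0.24). Asns, asparagine synthetase and a target of the factor ATF4, was at 1.18 to 3.08 CPM (median 1.92) in the NZO libraries against 3.81 to 12.2 CPM (median 6.53) in the Cast libraries, without overlap (log2 difference -1.65 ± 0.21 SE, adjusted p = 2.1e-09). Chac1, which degrades glutathione, was -1.83 (adjusted p = 7.5e-05) (-1.21, adjusted p = 0.018 without the 3 libraries), and Ppp1r15a, which restarts translation, -1.83 (adjusted p = 1.0e-07) and -0.24 (adjusted p = 0.28) without the 3 libraries. Atf3 was higher in NZO (1.09, adjusted p = 0.015), but not called without Cast_7 and Cast_8 (0.79, adjusted p = 0.095) or with marker sums as covariates (0.83, adjusted p = 0.081). Of 20 heat shock genes, 0 were higher in NZO and 6 in Cast (median log2 difference 0.06), and 1 was higher in NZO at an unadjusted p under 0.05: the small chaperone Hspb1 was -1.51 (adjusted p = 9.7e-05) and Hsph1 -0.72 (adjusted p = 2.7e-05). Without Cast_1, Cast_5 and Cast_6 the heat shock counts were 2 higher in NZO and 3 higher in Cast, and Hspb1 was not called (-0.14, adjusted p = 0.73). Of 24 cholesterol synthesis genes, 3 were higher in NZO and 7 in Cast (25.5% and 30.0% of all genes, median log2 difference -0.09), with Fdft1 (squalene synthase) and Lss (lanosterol synthase) higher in Cast in every library (-1.45, adjusted p = 2.8e-10 and -1.31, adjusted p = 2.8e-10). Without Cast_1, Cast_5 and Cast_6 the counts were 1 higher in NZO and 9 higher in Cast, and Fdft1 was -0.60 (adjusted p = 1.7e-06). Without Cast_1 and Cast_3 the counts were 6 higher in NZO and 6 higher in Cast.

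Of 19 clock genes, 2 were higher in NZO and 8 in Cast (median log2 difference -0.34), and without Cast_1, Cast_5 and Cast_6 2 higher in NZO and 0 higher in Cast of 19 (median 0.02). At an unadjusted p under 0.05, 3 were higher in Cast in that edgeR fit. Bhlhe41, a repressor of the clock, was at 35.6 to 52 CPM in NZO (median 49.5) and 2.86 to 30.0 CPM in Cast (median 7.36), without overlap (log2 difference 2.04 ± 0.36 SE, adjusted p = 3.7e-06), and Per3 was 0.92 (adjusted p = 0.0063). Per3 lost its call without Cast_1, Cast_5 and Cast_6 (0.66, adjusted p = 0.11) and without Cast_1 and Cast_3 (0.64, adjusted p = 0.073), and 5 clock genes were higher in NZO without Cast_7 and Cast_8. The clock regulators Nfil3 and Rora were higher in Cast (-1.47, adjusted p = 2.5e-05 and -1.31, adjusted p = 1.3e-06), and -0.62 (adjusted p = 0.078) and -0.14 (adjusted p = 0.43) without the 3 libraries. The time of day of collection is not given by the labels. Of 19 genes of the neuromuscular junction and denervation, 3 were higher in NZO and 7 in Cast (median log2 difference -0.10). Musk, the kinase that gathers acetylcholine receptors, and Myog (myogenin) were higher in Cast (-1.80, adjusted p = 1.1e-05 and -1.83, adjusted p = 6.4e-05), and Ache and Chrna1 higher in NZO (0.79, adjusted p = 0.0014 and 0.58, adjusted p = 0.0053). Chrna1 rested on NZO_8, at 47.5 CPM, and was 0.19 (adjusted p = 0.19) without it. For the junction list the counts were 1 higher in NZO and 5 higher in Cast without Cast_1, Cast_5 and Cast_6. There Musk, Ache and Chrna1 were not called (-0.50, adjusted p = 0.21, 0.30, adjusted p = 0.18 and 0.34, adjusted p = 0.18). Without Cast_7 and Cast_8 the counts were 5 higher in NZO and 6 higher in Cast.

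Of 16 genes of myokines and growth regulators, 10 were higher in NZO and 2 in Cast (median log2 difference 0.60), against 6 higher in NZO and 1 higher in Cast without Cast_1, Cast_5 and Cast_6. Ostn (musclin) was at 4.53 to 20.5 CPM (median 8.08) in the NZO libraries against 1.02 to 5.81 CPM (median 2.29) in the Cast libraries (log2 difference 1.67 ± 0.41 SE, adjusted p = 4.8e-04), and both strains were below the means of the other 6, which ranged over 34.9 to 55.1 CPM (-2.26, adjusted p = 3.1e-07 for NZO and -3.94, adjusted p = 3.0e-12 for Cast). Fstl1, a secreted follistatin-like protein, was higher in NZO in every library (0.93, adjusted p = 7.3e-06). Mstn, myostatin, the brake on muscle growth, was lower in NZO, with 43 to 57.3 CPM in NZO (median 48.1) and 44 to 91.2 CPM in Cast (median 65.9) (log2 difference -0.48 ± 0.15 SE, adjusted p = 0.0067). The call was lost without those 3 libraries (-0.11, adjusted p = 0.61). Igf1 was not called (-0.18, adjusted p = 0.48). Of 11 genes with variants known among these strains, 2 were higher in NZO and 6 in Cast. Dysf (dysferlin), which reseals the fibre membrane, was higher in NZO in every library (0.30, adjusted p = 0.007), and the leptin receptor gene Lepr was -0.91 (adjusted p = 1.3e-04). Both calls were lost without Cast_1, Cast_5 and Cast_6 (0.20, adjusted p = 0.15 and -0.48, adjusted p = 0.076), where the counts of the list were 1 higher in NZO and 5 higher in Cast.

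Some of the largest differences were between near-identical genes whose reads the counting may split by strain. mt-Co2, a mitochondrial subunit of cytochrome c oxidase, was at 3864 to 5938 CPM in NZO and at most 157 CPM in Cast (log2 difference 6.16), and 0.35 (adjusted p = 0.0054) with its nuclear copies added. Hba-a1, alpha globin, went from 5.19 to 1.14 (adjusted p = 2.8e-04) with Hba-a2, and Hbb-bt from 1.63 to 1.12 (adjusted p = 4.4e-04) with Hbb-bs. Eno1b, a second copy of enolase 1, went from -8.41 to -0.22 (adjusted p = 0.098), and Amd2, of polyamine synthesis, from -6.02 to -0.15 (adjusted p = 0.87). Gbp10, a guanylate-binding protein of the interferon response, remained far higher in NZO with its copies (5.22 alone, 3.80, adjusted p = 3.7e-15 together), and Cyp2b10, a drug-metabolising cytochrome, higher in Cast (-7.94 alone, -4.07, adjusted p = 8.3e-04 together). Scd2 was 0.91 alone and -0.99 (adjusted p = 0.04) with Scd1 added, and was not called alone without Cast_1, Cast_5 and Cast_6 (0.58, adjusted p = 0.072). Among other named genes, Pln, Echs1, G0s2, Fdft1, Tceanc2 and Pfkfb1 share bases with Cep85l, Paox, Lamb3, Ctsb, Tmem59 and Apex2 on the other strand, and Per3 with Camta1 on its own, so their values carry the same uncertainty. Cast is further from the reference strain in sequence than NZO, and the part of read mapping in these differences was not tested.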

How the data were processed

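RNA of skeletal muscle was measured in 61 libraries of 8 strains made, per the labels' protocols, with polyA selection and a KAPA mRNA HyperPrep kit. The authors deposited expected counts per gene and a table of variance-stabilised log2 values. GRCm38 and DESeq2 are named, per the submitters' processing notes. Aligner, counter and strand setting: not given in the sources used here. Groups were taken from strain names, and the members and gene lists were chosen with earlier results of these data known.

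The expected counts (80.4% of values whole) were rounded, since the test chosen is for whole counts. Genes were kept by edgeR's filterByExpr (16682 of 19462), library sizes scaled by TMM, and 1 quasi-likelihood model with a term for strain was fitted to all 61 libraries (edgeR 4.0.16, R 4.3.3, 53 residual degrees of freedom). Every adjusted p of a gene is from this edgeR test, NZO minus Cast or a strain minus the mean of the other 6, with Benjamini-Hochberg adjustment over all genes tested. Standard errors (SE) were derived from each log2 difference and its F statistic, as |log2|/√F. Library totals were 19.7 to 65.2 M, so counting error was small beside the spread between libraries except for genes near 0 CPM. The scripts were tested on simulated data.

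Named genes were the 12 highest in each direction at a mean of at least 5 CPM, without a near-identical copy and excluding predicted genes, the 6 highest in each direction at a mean of at least 100 CPM, up to 3 per direction of each list, a list of core genes, and the 3 per direction left out for a near-identical copy. Tceanc2 and Snph were taken from the comparisons with the other 6 strains. Fbxo32, Xist and Ddx3y were added after their values were seen. Of the genes the rule names, 2 are not reported here. Copies were called near-identical where transcripts matched at 95% identity or more across 200 bases or more, covering 50% or more of the shorter one (BLAST 2.17.0, GENCODE M21, with 19388 of 19462 IDs found). Where a symbol stood on more than 1 ID (18 symbols), the more abundant was used. Promoters are RefSeq windows of 250 bases.

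Alternatives were DESeq2 (1.42.0), its size factors, limma (3.58.1) on the deposited log2 values, no filter, a mean of at least 100 counts, each library left out, the 15 libraries alone, a replicate block, covariates for marker sums, for the submitters' GT20 number and for Ddx3y minus Xist, library sizes without Rn18s-rs5, and copies added. The sets without Cast_1, Cast_5 and Cast_6, without Cast_7 and Cast_8, and without Cast_1 and Cast_3 were chosen after seeing the data.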

Additional observations from a re-analysis of the deposited data

Results flagged for a closer look

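A library was singled out where its gap to the nearest library of its strain, divided by the range of the strain, was above the Dixon limit for 8 NZO or 7 Cast libraries. Of 388 groups of values examined (each gene named by the rule or added, and each marker sum, in each strain), 55 held such a library. The limit is set for about 1 in 20 by chance in independent, normally distributed values. CPM values near 0 and genes that move together do not meet that, so no excess is read from this count. NZO_8 stood apart from the other 7 NZO libraries in Ighg2b (0.189 CPM), Jchain (0.837 CPM), Chrna9 (1.08 CPM), Igkc (3.35 CPM), Doc2b (3.24 CPM), Slc39a14 (22.1 CPM) and Sesn1 (32.1 CPM). NZO_8 also lay apart in Eif4ebp1 (35.8 CPM), Chrna1 (47.5 CPM), Myog (12.2 CPM), Mt1 (43.4 CPM), Mt2 (51.1 CPM), Adgre1 (11.2 CPM) and Cd163 (36.8 CPM). In NZO_8 the same held for the macrophage markers (415 CPM summed) and the neutrophil markers (124 CPM summed). NZO_1 was far from the other NZO libraries in Nnat (23.8 CPM), Gad1 (0.0944 CPM), mt-Co2 (5938 CPM), Myl6b (23.9 CPM), mt-Nd2 (9893 CPM), mt-Atp6 (5670 CPM) and Phkg1 (287 CPM). NZO_1 also lay apart in Ostn (20.5 CPM), Lox (45.4 CPM), Krt14 (1.32 CPM), Tnni1 (349 CPM) and Lpl (1043 CPM). In NZO_1 the same held for the smooth muscle and pericyte markers (724 CPM summed), the Schwann cell markers (282 CPM summed) and the keratinocyte markers (12.6 CPM summed). Cast_6 was far above the other Cast libraries in Gad1 (55.1 CPM), Doc2b (161 CPM), Trib3 (12.3 CPM), Asns (12.2 CPM), Fdft1 (265 CPM) and Snph (100.0 CPM). Cast_7 lay apart among the Cast libraries in Ighg2b (267 CPM), Ighg2c (77.6 CPM), Jchain (97.4 CPM), Igkc (264 CPM) and Pfkfb1 (13.8 CPM). Cast_5 was the extreme Cast library in Impad1 (29.8 CPM), Mx2 (8.21 CPM), Oasl1 (11.5 CPM) and Rsad2 (8.71 CPM). Cast_8 was the extreme Cast library for Ucp1 (122 CPM) and Krt14 (53.1 CPM). In Cast_8 the same held for the keratinocyte markers (388 CPM summed). NZO_3 was the extreme NZO library in Ucp1 (1.05 CPM), Elovl3 (2.84 CPM) and Tceanc2 (1.34 CPM). NZO_6 stood apart in Smoc2 (124 CPM). Cast_3 stood apart in Gbp10 (1.55 CPM). Cast_1 stood apart in Cd36 (547 CPM). No explanation of these values was tested.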

How the results depend on the processing

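The number of genes called was 8805 to 9609 with any 1 library left out (4010 to 4458 higher in NZO, 4790 to 5151 higher in Cast), against 9256 with all (4248 and 5008). It was 9497 with DESeq2, 9667 with no filter, 6653 of 10603 genes with a mean of at least 100 counts, 6672 of 14905 in the 15 libraries alone, and 7450 without Cast_1, Cast_5 and Cast_6. The replicate numbers did not pair the libraries: correlations of same-numbered NZO and Cast libraries were -0.36 to 0.49, and 1 of 7 pairs correlated best with its own number. A replicate block over the 14 libraries that share a number called 4992 of 14805 genes (2778 higher in NZO, 2214 higher in Cast), and over all 61 libraries 9284. Directions that turned were Ighg2b (0.90) and Ighg2c (1.54) without Cast_7 and Cast_8, Cycs (0.090) with copies added, Scd2 (-0.99) with the far more abundant Scd1 added, and Slc2a1 (0.41), Oasl1 (1.06) and Insr (0.34) without Cast_1, Cast_5 and Cast_6. The cause was not tested beyond naming those libraries or copies. Without Cast_1, Cast_5 and Cast_6, 32 of the 179 genes named by the rule or added lost their call and 2 gained one. With marker sums as covariates 9 lost it. In the 15 libraries alone 11 of 175 lost it, among them Slc2a1, Ache, Chrna1, Oasl1, Lpl and Insr. With the replicate block over the 14 libraries 32 of 175 lost it, among them Trim63, Slc39a14, Sesn1, Col1a1, Gpam and Tbc1d4. Single libraries moved the linear ratio of NZO to Cast by over 1.5 times in Ucp1 (-6.23, adjusted p = 9.5e-06 without Cast_8), Jchain (-4.74, adjusted p = 6.3e-04 without Cast_7), Slc39a14 (-3.45, adjusted p = 5.9e-11 without Cast_6), Doc2b (-4.33, adjusted p = 3.9e-09 without Cast_6), Gad1 (-10.31, adjusted p = 3.1e-18 without NZO_1) and Mt1 (-4.60, adjusted p = 5.1e-08 without NZO_8). So did Cast_3 in Gbp10 (6.37) and Ifi44 (3.85), Cast_5 in Ifit3b (3.43) and Mx2 (-4.65), Cast_6 in Cyp2b10 (-7.0), Cast_7 in Ighg2b (-8.47), Ighg2c (-7.61), Igkc (-3.70) and Slc4a1 (3.13), NZO_1 in Krt14 (-8.61), NZO_3 in Ucp1 (-7.59), NZO_6 in Eno1b (-9.13), and NZO_8 in Chrna9 (-7.42), Ighg2b (-12.58), Igkc (-7.32), Jchain (-8.05) and Mt2 (-4.49), each value being the log2 difference without that library. Among genes still called, leaving out Cast_1, Cast_5 and Cast_6 moved the ratio by over 1.5 times also in Kcng4 (3.54), Kera (1.89), Cyp2b10 (-5.65), Oas2 (3.25), Mx2 (-4.39) and Slc4a1 (1.6). Leaving out Cast_7 and Cast_8 did so in Lep (6.44), Kcng4 (5.09), Gdf11 (4.22), Nnat (3.80), and Kera (3.27). The same held for Ucp1 (-5.74), Ky (3.21), Col1a1 (2.34), Amd2 (-5.09), Thrsp (-1.93), Bhlhe41 (3.01), Per3 (1.57), Adrb3 (-2.48) and Slc4a1 (3.23). Without Cast_1 and Cast_3 it moved so in Fam213b (8.38), mt-Co2 (7.27), Gbp10 (6.59), Hba-a1 (6.58), Ifi44 (3.98) and Ifi202b (7.94). Depth limits genes near 0 CPM, such as Gad1 in NZO.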
